A study of Rattus norvegicus with 20 samples.

Results

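The livers of rats fed sesamolin were compared with the livers of rats fed sesamin, 5 arrays against 5, out of 20 arrays in the series. Both compounds are furofuran lignans of sesame seed that carry methylenedioxyphenyl groups. Sesamolin has an ether oxygen between the furofuran rings and 1 of these aryl groups, where sesamin has a direct bond. The diets held 0.2% of either lignan, so the doses were equal by weight. All animals were male Sprague-Dawley rats that arrived at 4 weeks of age, had 7 d to acclimatise and ate the test diet for 15 d. The remaining arrays came from rats on a lignan-free diet (5) and on 0.2% episesamin (5), an epimer of sesamin. Each diet was given to 7 rats, of which the heaviest and the lightest were not put on arrays, and each array held the liver RNA of 1 rat. The array titles give each array its diet, the comparison itself was proposed with earlier results of these data known, and all 11576 annotated genes that passed a filter on low values were tested.

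Liver cells break down fatty acids in mitochondria and in peroxisomes. Fatty acids are first bound to coenzyme A, carnitine acyltransferases carry the acyl groups into and out of the organelles, and acyl-CoA thioesterases release free fatty acids again. In rodents most of these enzymes are targets of the nuclear receptor PPAR-alpha, and sesame lignans are known for raising hepatic fatty acid oxidation in the rat.

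Values are probe set intensities after quantile normalization, and differences are given as log2(sesamolin) minus log2(sesamin) of intensity plus an offset of 5.85, with the standard error (SE) of the linear model. Before normalization the array means were 192 to 268 on the sesamin arrays and 159 to 261 on the sesamolin arrays, with group means of 236 ± 27.6 and 221 ± 45.3 (SD, n = 5 each; two-sided exact permutation p = 0.556, smallest possible p = 0.00794). The ratio of the 3' to the 5' probe set of beta-actin, a sign of RNA quality, was 1.23 ± 0.0772 with sesamin and 1.26 ± 0.0822 with sesamolin on the log2 scale (SD, n = 5 each; two-sided exact permutation p = 0.5). Correlations between arrays were 0.963 to 0.975 among sesamin arrays, 0.961 to 0.974 among sesamolin arrays and 0.956 to 0.971 between the diets. Hepatocyte markers were present on all arrays, and none of 13 such genes was called between the diets by its brightest probe set (a second probe set of Cps1 was, as given with the urea cycle). Albumin (Alb) read 13570 ± 1445 with sesamin and 14230 ± 1216 with sesamolin (SD, n = 5 each). The arrays measure bulk liver, in which fewer cells of a type and less RNA per cell cannot be told apart.

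Genes of fatty acid oxidation, acyl-CoA hydrolysis and lipid droplets were among those that stood higher with sesamolin than with sesamin, with Ehhadh, Crat, Acot8, Cpt1b and Cidea at 2.42 to 3.55 times the sesamin level. The genes that were lower with sesamolin included the muscle-type adaptor Stac3, the glucose transporter Slc2a2, the chaperone genes Hsp90b1 and Dnajc3 and a few macrophage genes. In all, 116 genes were higher with sesamolin (1.0% of the genes tested) and 94 were lower (0.812%), 210 in all (1.81%), at a limma p below 0.05 after Benjamini-Hochberg adjustment over all genes. At least 2-fold differences numbered 24 among the higher and 13 among the lower genes. The 5 sesamolin arrays all lay above the 5 sesamin arrays for 97 of the higher genes, and all below them for 74 of the lower genes. Over all genes, such a separation occurred for 4.29%, with 2.30% upward and 2.0% downward. An unadjusted p below 0.05 was reached by 1683 genes, and the median difference over all genes was 0.002.

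**Figure D1:**
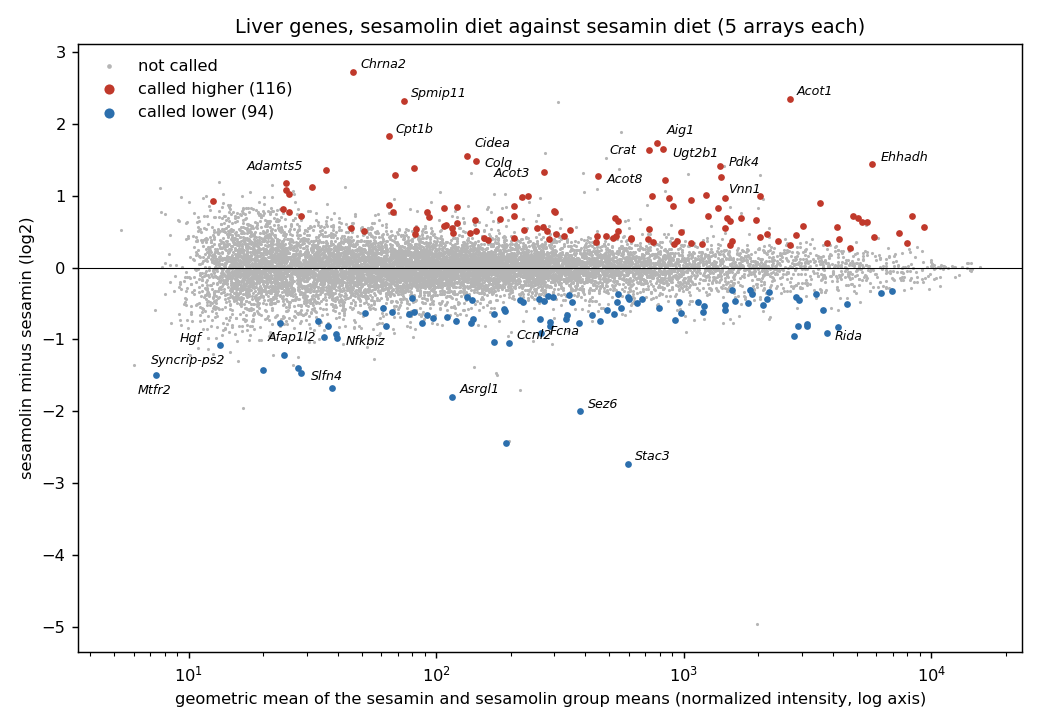
Each point is 1 of 11576 genes; the horizontal log axis gives the geometric mean of the 2 group means in normalized intensity, and the vertical axis the sesamolin minus sesamin difference on the log2 scale. The 116 genes called higher (red) and the 94 called lower (blue) lie on both sides of 0 across the whole range of intensity, and the named genes are those with the largest differences among called genes whose arrays do not overlap.

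The number of calls depended on the processing. Median scaling in place of quantile normalization gave 45 higher and 36 lower genes, and no normalization gave 9 and 14. With only the sesamin and sesamolin arrays in the model, 36 genes were higher and 16 lower. Of the 210 called genes, 84 (55 higher, 29 lower) passed with any 1 of the 20 arrays left out. Under all 35 other settings, 13 of the 210 genes passed: Acot8, Aig1, Chrna2, Cidea, Cpt1b, Crat, Ehhadh and Spmip11 were higher, and Asrgl1, Ccnl2, Rida, Sez6 and Stac3 were lower. Of 92 called genes examined singly, 38 lost the call under median scaling, 73 without normalization and 55 with only the 2 groups in the model. Slc2a2, Hsp90b1, Dnajc3, C1qa and Mrc1, lower with sesamolin, lost it in each of these settings. Decr1, Pank1 and Pex19, higher with sesamolin, did so too, among others. Slc25a20, also higher, lost it under median scaling and without normalization. The losses given gene by gene below are mostly those from arrays left out, so a gene without one is not thereby stable to the processing. The counts were most dependent on 4 arrays. They were 65 higher and 52 lower without sesamin replicate 5, 70 and 45 without sesamolin replicate 3, 80 and 54 without sesamin replicate 3, and 80 and 57 without sesamin replicate 4.

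**Figure D2:**
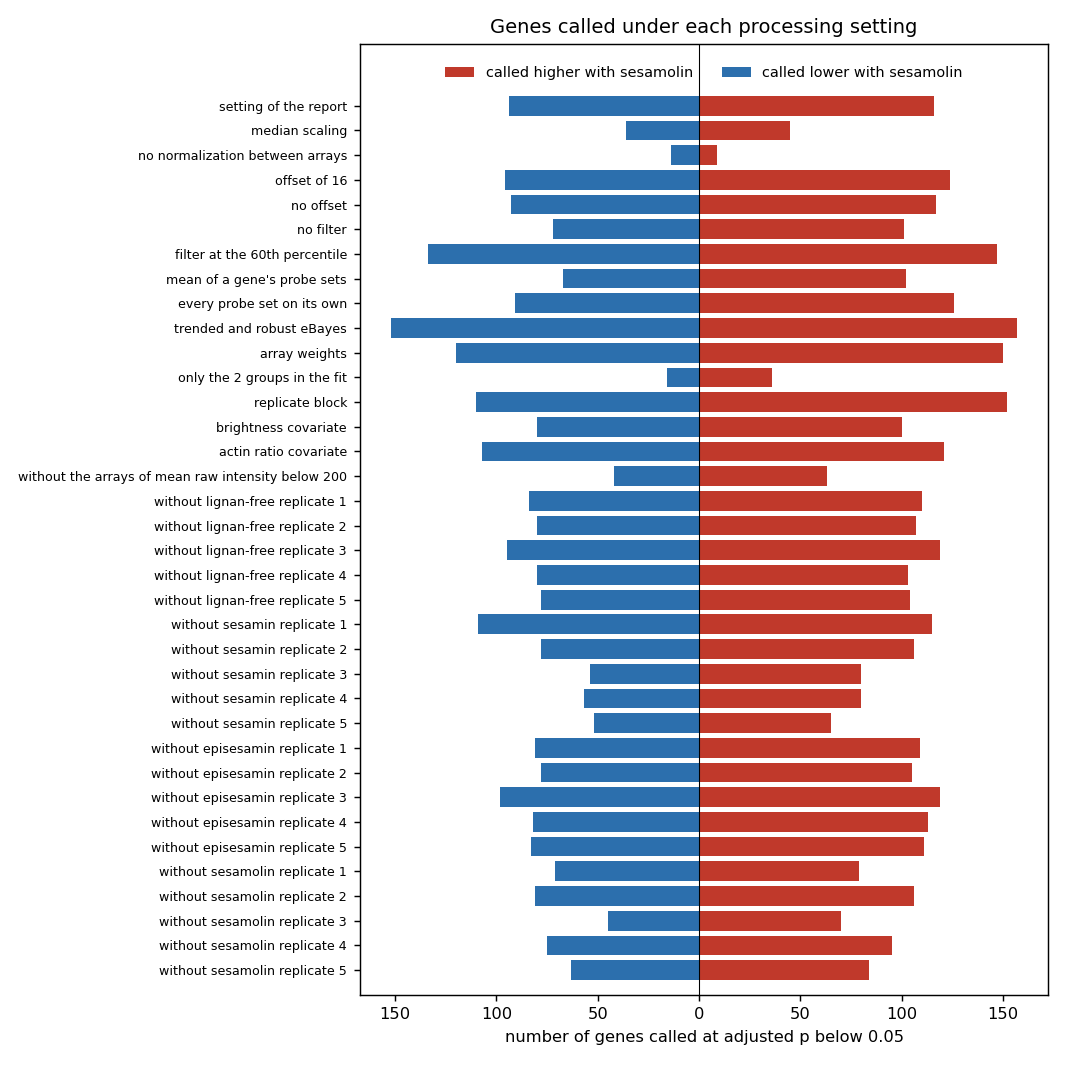
Bars give the number of genes called higher (red, to the right) and lower (blue, to the left) with sesamolin under the setting of the report and under 35 others, on a linear axis from 0. The setting of the report gave 116 and 94, no normalization gave 9 and 14, and trended and robust variance estimation gave 157 and 152.

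Promoter sequences are shown for 4 called genes, because PPAR-alpha and related receptors bind repeats of the half-site AGGTCA. The 250 bases before the RefSeq gene start (GRCr8) are printed on the strand of the gene, with AGGTCA or its reverse complement in capitals. The windows are chr3:173962189-173962438, minus strand, for Acot8, chr10:13961000-13961249, plus strand, for Eci1, chr9:1033285-1033534, minus strand, for Plin5, all higher with sesamolin, and chr7:65228225-65228474, plus strand, for Stac3, which was lower.
Acot8: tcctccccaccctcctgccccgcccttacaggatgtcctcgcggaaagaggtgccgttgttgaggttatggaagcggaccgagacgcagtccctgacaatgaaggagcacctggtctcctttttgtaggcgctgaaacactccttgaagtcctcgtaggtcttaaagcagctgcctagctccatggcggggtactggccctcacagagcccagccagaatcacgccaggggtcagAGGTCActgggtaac
Eci1: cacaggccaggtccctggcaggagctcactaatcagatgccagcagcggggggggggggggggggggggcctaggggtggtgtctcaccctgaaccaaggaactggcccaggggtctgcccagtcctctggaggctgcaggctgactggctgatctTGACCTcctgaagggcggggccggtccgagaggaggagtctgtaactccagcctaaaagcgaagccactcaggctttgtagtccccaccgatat
Plin5: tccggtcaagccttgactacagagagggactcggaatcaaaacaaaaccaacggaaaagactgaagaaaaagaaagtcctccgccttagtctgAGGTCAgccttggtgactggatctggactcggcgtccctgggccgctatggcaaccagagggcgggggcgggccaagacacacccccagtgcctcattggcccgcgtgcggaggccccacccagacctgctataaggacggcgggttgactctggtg
Stac3: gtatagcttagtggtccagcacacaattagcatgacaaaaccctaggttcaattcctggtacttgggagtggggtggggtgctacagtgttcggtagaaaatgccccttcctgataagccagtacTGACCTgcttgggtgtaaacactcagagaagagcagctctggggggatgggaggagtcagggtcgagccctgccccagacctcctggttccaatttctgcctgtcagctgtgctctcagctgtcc
Each of the 4 windows held 1 half-site, for which they were picked, beginning 15 bases before the start in Acot8, 94 in Eci1, 157 in Plin5 and 125 in Stac3. Over all 33469 windows of this length, 14.1% held AGGTCA on either strand. It was present in 22 of 99 windows (22.2%) of the 93 called higher genes with a window and in 15 of 104 windows (14.4%) of the 81 lower genes. The full direct repeat, with 1 base between 2 copies of the half-site, was in 17 of all windows (0.0508%) on either strand. A looser form that allows any base at position 4 of each copy, and so includes the full repeat, was in 123 (0.368%). Neither was in a window of a called gene. Other variants were not counted, such as a copy with a different first base, which the Acot8 window holds 1 base before its half-site. A match describes letters in this window and not a site in use, and its absence says nothing of the receptor.

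Of 23 tested genes of peroxisomal fatty acid oxidation, 10 were higher with sesamolin (43.5%), 0 were lower and 13 did not pass, with a median of 0.34 against 0.002 over all genes. Ehhadh, the bifunctional enoyl-CoA hydratase and 3-hydroxyacyl-CoA dehydrogenase of peroxisomes, read 4034, 2676, 4049, 4025 and 2661 on the sesamin arrays and 10540, 6143, 11050, 9552 and 10130 on the sesamolin arrays. Every sesamolin array lay above every sesamin array, replicate 2 being the lowest of its group, and the level was 2.71-fold higher (difference 1.44 ± 0.19 SE, adjusted p = 0.000413). Crat, which transfers short acyl groups between coenzyme A and carnitine, read 430, 420, 334, 442 and 379 with sesamin and 1403, 643, 1621, 1384 and 1498 with sesamolin, a 3.10-fold difference (1.63 ± 0.19, adjusted p = 0.000211). The groups were apart here too, and sesamolin replicate 2 was again the lowest. Acot8, a peroxisomal thioesterase, had the smallest adjusted p of these genes (1.19e-05): the sesamin arrays lay between 262 and 319, and the sesamolin arrays between 587 and 827, 2.42-fold higher. Relative to the lignan-free diet Acot8 stood 0.26 higher with sesamin, which did not pass, and 1.54 higher with sesamolin, which did (log2).

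Nudt7, a hydrolase of peroxisomal coenzyme A, was 1.82-fold higher (668 ± 124 with sesamin, 1215 ± 181 with sesamolin; SD, n = 5 each; adjusted p = 0.000627). Crot, the carnitine octanoyltransferase that exports shortened acyl groups from the peroxisome, was 1.61-fold higher, from 3523 to 4557 with sesamin and from 5801 to 7046 with sesamolin. Ech1, an isomerase for unsaturated acyl chains, rose 1.55-fold, and Hsd17b4, the second bifunctional enzyme, 1.26-fold. Slc27a2, an acyl-CoA synthetase of very long chains, Abcd3, an importer of the peroxisomal membrane, and Eci2, an enoyl-CoA isomerase, were higher by 0.34, 0.49 and 0.31 on the log2 scale. Members that did not pass included Scp2, a thiolase and sterol carrier (-0.15, 95% interval -0.28 to -0.01), and catalase, Cat (0.06, -0.09 to 0.20). Some of the calls turned on single arrays. The call for Hsd17b4 ended without sesamin replicate 5 (adjusted p = 0.0536) and that for Ech1 without sesamin replicate 5 or sesamolin replicates 1, 3 or 5 (up to 0.0572). The call for Slc27a2 ended without sesamin replicates 3 or 5 or sesamolin replicates 3, 4 or 5 (up to 0.0684), and that for Abcd3 without sesamin replicates 2 or 4 or sesamolin replicates 1 or 5 (up to 0.0892). For Eci2 it held only without lignan-free replicate 3, sesamin replicate 3 or sesamolin replicate 2, and adjusted p rose to 0.108.

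**Figure D3:**
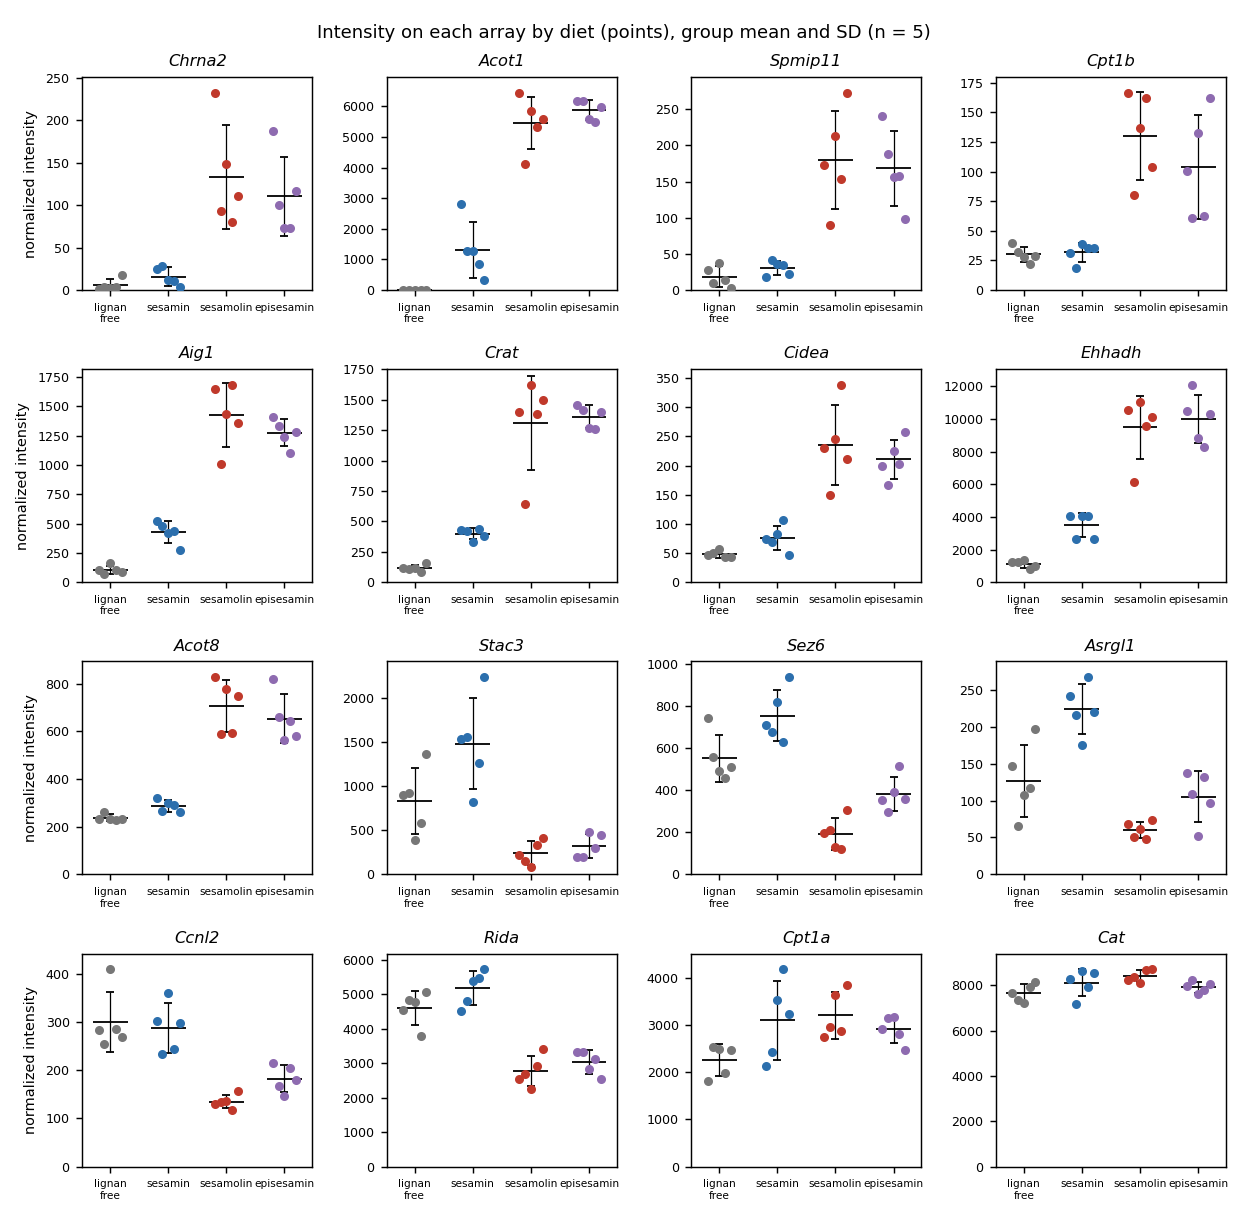
Normalized intensity of 16 genes on the 5 arrays of each diet (points), with the group mean (line) and SD (bars), on linear axes from 0. The 8 higher and 5 lower genes that passed under every setting come first. Acot1, placed among them, was called but lost its call with only the 2 lignan groups in the model. Cpt1a and Cat, at the end, were not called between sesamin and sesamolin.

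Mitochondrial oxidation had 11 of 28 tested genes higher (39.3%), 0 lower and 17 not passing (median 0.21). Cpt1b, the muscle-type carnitine palmitoyltransferase of the outer mitochondrial membrane, differed most. It read 31.2, 18.8, 38.7, 35.3 and 35.1 on the sesamin arrays and 166, 80.6, 136, 162 and 104 on the sesamolin arrays, 3.55-fold higher (1.83 ± 0.25, adjusted p = 0.000627). No array of one diet reached into the range of the other, and the sesamin mean of 31.8 lay close to the lignan-free mean of 30.1. Cpt1a, the liver form of the same enzyme, read 3101 ± 833 with sesamin and 3215 ± 498 with sesamolin and was not called (0.08, 95% interval -0.26 to 0.42). Downstream of it, Slc25a20, the carnitine-acylcarnitine carrier, was 1.56-fold higher and Cpt2, the inner-membrane transferase, 1.58-fold.

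Among the enzymes of the mitochondrial cycle, Eci1, an enoyl-CoA isomerase, read 5312 to 8093 with sesamin and 9277 to 11690 with sesamolin (1.65-fold, adjusted p = 0.00239). Acad11, an acyl-CoA dehydrogenase, was 1.61-fold higher, Decr1, the dienoyl-CoA reductase, 1.34-fold, and Acaa2, the 3-ketoacyl-CoA thiolase, 1.40-fold. Hadha and Hadhb, the subunits of the trifunctional protein, were higher by 0.45 ± 0.08 and 0.40 ± 0.09. A second, dimmer Hadha probe set differed by 0.12 without passing, and the Hadha call ended when its probe sets were averaged. Acot2, a mitochondrial thioesterase, was 1.61-fold and Slc22a5, the carnitine transporter of the plasma membrane, 1.70-fold higher, the latter with overlapping arrays. The other Acot2 probe sets differed by 0.59 and 0.44, and neither passed. Acadm, the medium-chain dehydrogenase, showed 0.12 (95% interval -0.05 to 0.28) and Hsd17b10 0.18 (0.02 to 0.33), and neither passed. The call for Acaa2 ended without sesamolin replicate 3 (adjusted p = 0.0524), that for Slc22a5 without sesamin replicates 3 or 5 (up to 0.0527), and that for Hadhb without sesamin replicates 3 or 5 or sesamolin replicates 1, 3 or 5 (up to 0.0603).

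Of 25 tested genes that take up or activate fatty acids or hydrolyse acyl-CoA, 5 were higher (20%) and 0 lower (median 0.35), and 4 of the 5 were thioesterases. Acot1, the cytosolic thioesterase, read 2804, 1290, 1279, 848 and 330 with sesamin and 6444, 4135, 5862, 5343 and 5576 with sesamolin, 5.11-fold higher (2.35 ± 0.36, adjusted p = 0.00141). The sesamin arrays spread widely and none reached the sesamolin arrays, while the lignan-free mean was 7.42, below the filter level of 17.8. With only the arrays of the 2 lignans in the model the adjusted p of Acot1 was 0.0604. Acot3, a peroxisomal thioesterase, was 2.52-fold higher (170 ± 53.2 against 440 ± 145; SD, n = 5 each) and Acot7, a cytosolic thioesterase, 2.33-fold (550 ± 163 against 1274 ± 266). Vnn1, a pantetheinase that yields cysteamine and the precursor of coenzyme A, was 2.40-fold higher, at 674 to 1193 with sesamin and 1411 to 2667 with sesamolin. Acot4, a thioesterase of peroxisomes, was 1.78-fold higher with overlapping arrays, and its call ended without sesamin replicates 2, 3, 4 or 5 or sesamolin replicates 1, 3 or 5 (adjusted p up to 0.0974). Fabp1, the liver fatty acid binding protein, did not pass (0.0037, 95% interval -0.13 to 0.14), nor did Dbi, the acyl-CoA binding protein (0.14, -0.05 to 0.34).

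Acot1, Acot3 and Acot4 are close paralogs, and cross-hybridization between their probe sets was not tested. The coenzyme A list shared Vnn1 and Nudt7 with the groups above and added Pank1, the kinase of the first step of coenzyme A synthesis, at 1.47-fold (1213 ± 93.7 against 1789 ± 226; SD, n = 5 each; adjusted p = 0.00981). This made 3 of 15 tested genes higher (20%) and 0 lower (median 0.15, which turned to -0.01 without normalization between arrays). Of 20 genes of peroxisome biogenesis, 3 were higher (15%) and 0 lower (median 0.10, which turned to -0.05 without normalization). Pex19, a receptor for membrane proteins of the peroxisome, was 1.48-fold higher, at 204 to 257 with sesamin and 269 to 412 with sesamolin. Pex11a and Pex11g, which take part in peroxisome division, were 1.95-fold and 1.46-fold higher, both with overlapping arrays. A second Pex11a probe set was higher as well (1.55 ± 0.29, adjusted p = 0.0090 over all probe sets). The call for Pex11a ended without sesamin replicates 2, 3, 4 or 5 or sesamolin replicates 1, 3, 4 or 5 (adjusted p up to 0.0979). That for Pex11g ended without lignan-free replicates 2 or 4, sesamin replicates 2, 3 or 4, episesamin replicate 2 or sesamolin replicates 1, 2 or 3 (up to 0.106).

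Of 14 genes of microsomal omega-oxidation, 1 was higher (7.14%) and 0 lower, a single call from which nothing is read about the list. Cyp4a1, a fatty acid omega-hydroxylase, read 8626, 6733, 7806, 8291 and 6982 with sesamin and 12170, 9484, 12270, 11690 and 11050 with sesamolin (1.47-fold, adjusted p = 0.00758). Its relative Cyp4a3 lay at 7147 ± 1361 and 8124 ± 882 (SD, n = 5 each) and was not called (0.20, 95% interval -0.05 to 0.45). Cyp4a8 pointed the other way, at 20.9 to 95.3 with sesamin and 10.4 to 18.4 with sesamolin (-1.35 ± 0.42), and did not pass (adjusted p = 0.112). Among 11 genes of ketone body synthesis and fasting signals, 1 was higher (9.09%), again a single call: Pdk4, the kinase that shuts down pyruvate dehydrogenase, read 728, 1452, 482, 921 and 764 with sesamin and 2779, 1833, 1515, 2796 and 2344 with sesamolin (2.68-fold, adjusted p = 0.0169). The sesamin mean of Pdk4, 870, was near the lignan-free mean of 774. Angptl4, a secreted lipase inhibitor, differed by 0.30 (95% interval -0.27 to 0.87) and Bdh1, a ketone body dehydrogenase, by -0.03 (-0.31 to 0.25). The monocarboxylate transporters Slc16a6 and Slc16a1 lay 0.56 and 0.42 higher without passing (adjusted p = 0.0613 and 0.128).

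Of 33 genes of lipoproteins and lipid droplets, 5 were higher (15.2%) and 0 lower, and the median was -0.004 (0.05 under median scaling). Cidea, which promotes fusion of lipid droplets, read 74.2, 69.7, 81.9, 106 and 47.1 with sesamin and 231, 150, 246, 338 and 211 with sesamolin, 2.94-fold higher (1.55 ± 0.19, adjusted p = 0.000313). Plin5, a perilipin that links droplets to mitochondria, was 1.83-fold higher, at 34.1 to 56.6 and 78.2 to 104. Fitm2, an endoplasmic reticulum protein of droplet formation, was 2.0-fold, Mgll, the monoglyceride lipase, 1.91-fold and Hilpda, an inhibitor of triglyceride lipolysis, 1.63-fold higher. Fitm2 read 423 to 650 with sesamin and 795 to 1521 with sesamolin. A second Fitm2 probe set, at 201 with sesamin and 314 with sesamolin, differed by 0.56 without passing. Apob, the structural protein of very low density lipoprotein, showed -0.30 (95% interval -0.48 to -0.11, adjusted p = 0.0961), and Apoc3, another apolipoprotein of these particles, -0.04 (-0.16 to 0.08).

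Of 30 genes of fatty acid and triglyceride synthesis, 3 were higher and 1 lower (13.3% called, median 0.19). Me1, the malic enzyme that supplies NADPH, read 1996, 3228, 2995, 1871 and 3109 with sesamin and 4479, 5378, 4962, 4767 and 4439 with sesamolin (1.86-fold, adjusted p = 0.0179). Its sesamin mean of 2640 lay below the lignan-free mean of 3000 without passing, and its sesamolin mean lay above. Fads2, the delta-6 desaturase, was 1.55-fold higher (4229 ± 848 against 6485 ± 586; SD, n = 5 each). The acyltransferases of the last step of triglyceride synthesis moved in opposite directions, with Dgat1 1.36-fold higher (346 to 425, then 475 to 606) and Dgat2 1.44-fold lower (2223 to 2800, then 1507 to 2013). Scd, the stearoyl-CoA desaturase, differed by 0.10 (95% interval -0.04 to 0.25) and Elovl5, a fatty acid elongase, by 0.0032 (-0.19 to 0.20). The call for Dgat2 ended without sesamolin replicate 3 (adjusted p = 0.0521), that for Me1 without sesamin replicate 4 (0.0540) and that for Dgat1 without sesamin replicate 5 or sesamolin replicate 3 (up to 0.0635).

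**Figure D4:**
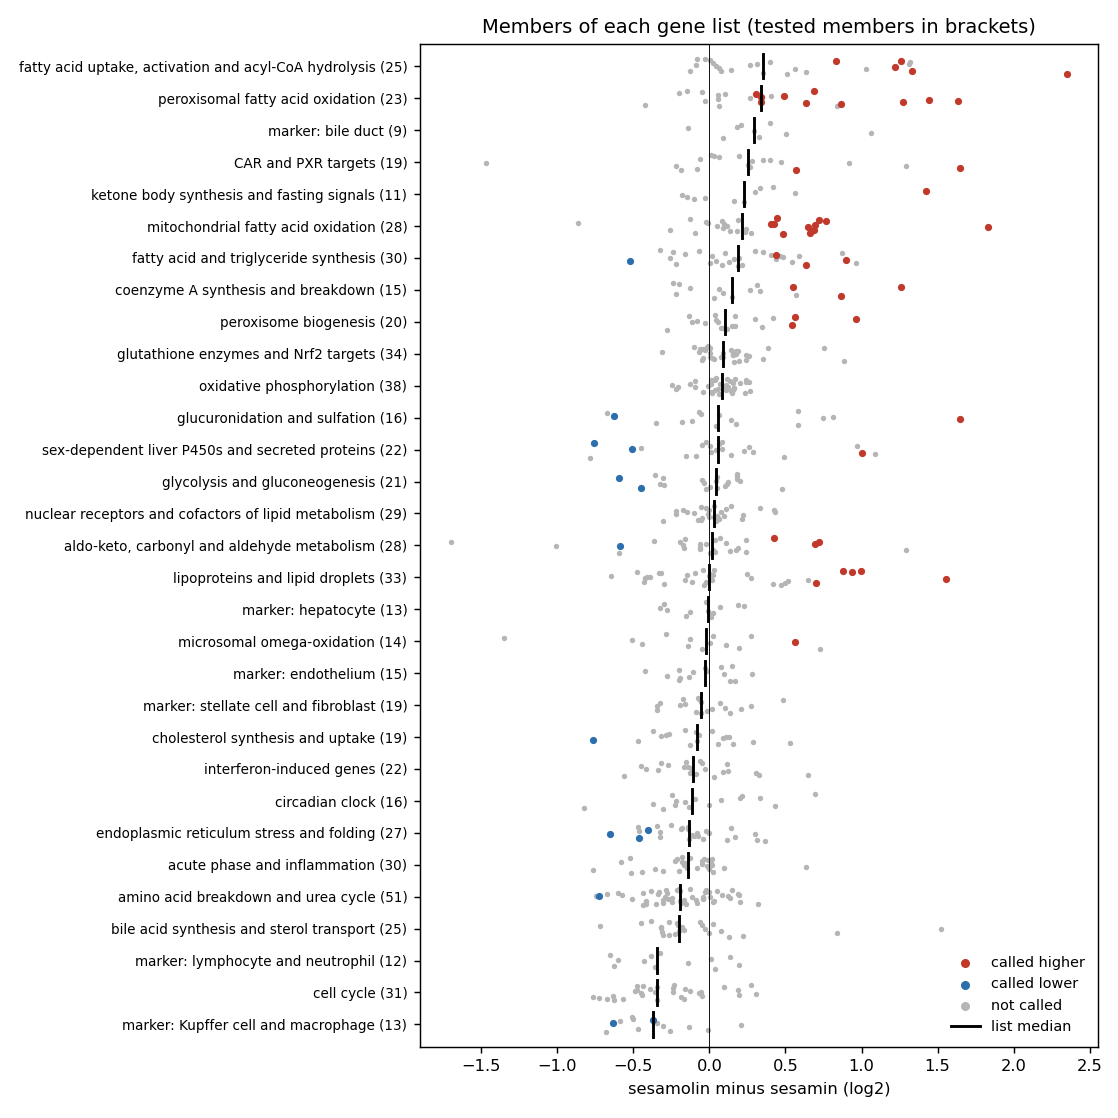
Sesamolin minus sesamin difference (log2, horizontal axis) of each tested member of 31 gene lists with at least 9 tested members, ordered by list median (black bar). Called members are red (higher) or blue (lower); they gather in the lists of fatty acid oxidation and acyl-CoA hydrolysis, whose medians of 0.21 to 0.35 stand beside 0.002 for all genes.

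Other genes with large rises lay outside these lists. Chrna2, a subunit of the nicotinic acetylcholine receptor, read 25.4, 28.6, 12.3, 10.4 and 3.18 with sesamin and 232, 93.3, 148, 80.4 and 110 with sesamolin. With 3 of the 5 sesamin arrays below the filter level of 17.8, the difference is a bound, at least 5.86-fold higher (adjusted p = 0.000674). Spmip11, which encodes a microtubule protein known from sperm, rose from 18.3 to 40.9 with sesamin to 90.3 to 273 with sesamolin, 5.0-fold. Aig1, a hydrolase of fatty acid esters of hydroxy fatty acids, read 525, 482, 418, 436 and 278 with sesamin and 1650, 1007, 1437, 1681 and 1356 with sesamolin (3.32-fold, adjusted p = 0.000115). Colq, the collagen tail of acetylcholinesterase, was 2.79-fold higher (86.5 ± 34.5 against 241 ± 48.1; SD, n = 5 each). For Spmip11, Aig1 and Colq the sesamolin arrays lay apart from the sesamin arrays. Adamts5, a protease of the extracellular matrix, was 2.56-fold higher, at 15.3 to 26.9 and 33.8 to 86.8, close to the filter level. Its call ended with most single arrays left out (adjusted p up to 0.0954), the exceptions being lignan-free replicate 3, episesamin replicates 2 to 5 and sesamolin replicate 4.

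Among called genes with separate arrays, uncharacterised loci passed over, Stac3 showed the largest fall. This adaptor of calcium channels in skeletal muscle read 1531, 1558, 817, 1260 and 2232 with sesamin and 223, 147, 79.6, 336 and 412 with sesamolin, 6.66-fold lower (-2.73 ± 0.41, adjusted p = 0.00141). The highest sesamolin array lay below the lowest sesamin array, and the lignan-free mean of 827 lay between the groups: sesamolin stood 1.85 below it and was called, sesamin 0.89 above it and was not. Sez6, a membrane protein known from neurons, read 711, 678, 820, 630 and 937 with sesamin and 195, 209, 131, 122 and 308 with sesamolin, 4.0-fold lower (adjusted p = 5.67e-05), again on either side of the lignan-free mean of 553. Asrgl1, an asparaginase-like enzyme, was 3.49-fold lower (224 ± 34.1 against 60.1 ± 11.4; SD, n = 5 each) and had a lignan-free mean of 127. Its other probe sets disagreed: 1 differed by -3.75 and the other, at 38.9 and 48.0, by 0.22. Rida, a deaminase that clears reactive enamines, read 4512, 4804, 5396, 5481 and 5721 with sesamin and 2548, 2699, 2252, 2906 and 3423 with sesamolin, 1.88-fold lower (adjusted p = 0.000341). Ccnl2, a cyclin that acts in splicing, was 2.07-fold lower (235 to 361, then 118 to 156). Of the other Ccnl2 probe sets, 1 differed by -0.69 and 1 by 0.06, and neither passed. Cdh17 and Itgb3bp were also called lower, with overlapping arrays. The Cdh17 difference was -3.01 to -1.91 over the settings tried (adjusted p = 0.0438), and its call ended with any of 15 arrays left out (up to 0.117). Itgb3bp differed by -1.21, and its second probe set by 0.28 without passing.

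Lower-intensity genes made up most of the other large falls with separate arrays, some of them at or below the filter level with sesamolin. Slfn4, a schlafen family gene of myeloid cells, read 30.9 to 63.6 with sesamin and 3.47 to 27.6 with sesamolin, at least 2.40-fold lower (adjusted p = 0.00927). Hgf, hepatocyte growth factor, was at least 1.23-fold lower (15.9 to 28.6, then 3.31 to 15.6), and its call ended without sesamin replicate 3 or sesamolin replicates 1 or 5 (adjusted p up to 0.0569). The pseudogene Syncrip-ps2 was at least 1.90-fold lower, with a call that ended without sesamin replicate 5 or sesamolin replicate 5 (up to 0.0550). Nfkbiz, a regulator of NF-kappaB, was 1.97-fold lower (59.95 ± 24.4 against 26.4 ± 6.14; SD, n = 5 each). A second Nfkbiz probe set differed by 0.46 the other way, and the call ended without sesamin replicate 5 or sesamolin replicates 3 or 5 (up to 0.0620). Afap1l2, an adaptor of signalling proteins, was 1.89-fold lower, a call that ended without sesamin replicates 1, 2, 3 or 5 or sesamolin replicate 2 (up to 0.0865). Mtfr2, a gene of mitochondrial fission, lay at 13.9 to 28.4 with sesamin and 1.30 to 5.47 with sesamolin, below the filter level on most arrays of both groups, so no fold is given. Its call (adjusted p = 0.0269) ended without any of 11 arrays (up to 0.679). These were lignan-free replicate 2, sesamin replicates 1, 3 and 5, episesamin replicates 1, 4 and 5 and sesamolin replicates 1, 3, 4 and 5. A second Mtfr2 probe set, at 14.53 with sesamin and 11.35 with sesamolin, differed by -0.35 without passing. It stands for the gene in any run where the first misses the filter, and how many of the 11 losses came from this was not tested.

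Of 19 targets of the receptors CAR and PXR, 2 were higher and 0 lower (10.5% called, median 0.25), and of 34 glutathione enzymes and Nrf2 targets and 5 AhR targets none passed. These counts cover the listed members only. Gstp3, a glutathione S-transferase outside the lists, was called lower, a call that did not hold with every single array left out. Ugt2b1, a glucuronosyltransferase, read 578, 502, 249.4, 514 and 448 with sesamin and 808, 1823, 2338, 1135 and 1330 with sesamolin (3.12-fold, adjusted p = 0.0342), its sesamin mean of 458 being below the lignan-free mean of 726. Ephx1, the microsomal epoxide hydrolase, was 1.48-fold higher (3438 ± 613 against 5042 ± 363; SD, n = 5 each). Aldh1a1, a retinal dehydrogenase, read 1544, 1526, 1726, 1497 and 447 with sesamin and 3238, 2096, 3184, 3140 and 3617 with sesamolin and did not pass (1.29, 95% interval 0.57 to 2.02, adjusted p = 0.0629), although the arrays were separate. Cyp2b3 and Cyp2c7, abundant microsomal P450s, differed by -0.06 and 0.01, and Cyp1a2, the main AhR target of liver, by -0.29 (-0.71 to 0.13). The call for Ugt2b1 ended without sesamin replicates 2, 3, 4 or 5 or sesamolin replicates 2, 3 or 5 (adjusted p up to 0.0979), and that for Ephx1 without sesamin replicates 4 or 5 or sesamolin replicates 3 or 5 (up to 0.0705).

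Of 28 genes of aldo-keto, carbonyl and aldehyde metabolism, 3 were higher and 1 lower (14.3% called, median 0.01, which turned to -0.11 without normalization). The aflatoxin aldehyde reductase Akr7a3 read 449, 416, 410, 359 and 428 with sesamin and 606, 688, 673, 709 and 678 with sesamolin (1.62-fold, adjusted p = 0.0157), on either side of its lignan-free mean of 530. The related Akr7a2 was 1.34-fold higher (1627 to 1968, then 2162 to 2426). Cbr1, a carbonyl reductase, was 1.65-fold higher and Hsd11b1, which regenerates active glucocorticoid, 1.5-fold lower, with adjusted p of 0.0388 and 0.0455. Both calls ended with most single arrays left out: Cbr1 kept its call without lignan-free replicates 1 to 4, episesamin replicates 1, 3, 4 or 5 or sesamolin replicate 2 and otherwise reached 0.108. Hsd11b1 kept it without lignan-free replicates 3 or 4, sesamin replicate 1, episesamin replicate 5 or sesamolin replicates 2 or 5 and otherwise reached 0.117. Among 16 genes of glucuronidation and sulfation, of which 12.5% were called, Ugt2b1 was higher and Papss2, which makes the sulfate donor, was 1.54-fold lower (1479 ± 76.3 against 961 ± 110; SD, n = 5 each; adjusted p = 0.00218). A second Papss2 probe set, at 800 with sesamin and 644 with sesamolin, differed by -0.34 without passing. The Papss2 call ended when its probe sets were averaged. Ugp2, which makes UDP-glucose, fell short of the threshold (-0.68 ± 0.17, adjusted p = 0.0529).

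Sex-dependent P450s and secreted proteins had 1 of 22 higher and 2 lower (13.6% called, median 0.05, -0.04 without normalization). Cyp2j4, a P450 of the CYP2J family, was 2.0-fold higher, at 689 to 1047 with sesamin and 1271 to 2169 with sesamolin. Cyp2t1, a P450 of the CYP2T family, was 1.69-fold lower (315 to 452, then 208 to 231). Hao2, a hydroxyacid oxidase of peroxisomes, was 1.42-fold lower, with a call that ended without sesamin replicates 3, 4 or 5 or sesamolin replicates 1, 3 or 4 (adjusted p up to 0.0753). The male-specific Cyp2c11 differed by 0.04 (95% interval -0.12 to 0.20).

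Glucose handling gave 0 higher and 2 lower genes of 21 (9.52% called, median 0.04, which turned to -0.08 without normalization). Slc2a2, the GLUT2 glucose transporter, read 3217, 3342, 3605, 3281 and 3554 with sesamin and 2477, 2259, 2451, 2696 and 2569 with sesamolin, 1.36-fold lower (-0.45 ± 0.09, adjusted p = 0.0115). Slc37a4, the glucose 6-phosphate transporter of the endoplasmic reticulum, was 1.51-fold lower (1555 to 1951, then 898 to 1476). Both sets of arrays were apart. Fbp1, a key enzyme of gluconeogenesis, differed by -0.05 (95% interval -0.22 to 0.11) and Ldha, lactate dehydrogenase, by 0.05 (-0.08 to 0.17). Of 19 genes of cholesterol synthesis and uptake 1 was called (5.26%): Idi1, the isopentenyl diphosphate isomerase, was lower by 0.77 on the log2 scale (-0.77 ± 0.19, adjusted p = 0.0493), a call that held only without lignan-free replicates 1 or 3 or sesamolin replicate 1 and otherwise reached 0.131. None of 25 genes of bile acid synthesis and sterol transport passed. Nr0b2, the corepressor SHP, spread from 134 to 471 with sesamin and from 326 to 1390 with sesamolin (1.52 ± 0.46, adjusted p = 0.105).

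Of 27 genes of endoplasmic reticulum stress and folding, 3 were lower (11.1%) and 0 higher, and 6 lay above 0 (median -0.13). The chaperone Hsp90b1 read 3069, 3434, 3315, 3266 and 3198 with sesamin and 2426, 2911, 2300, 2576 and 2125 with sesamolin (1.33-fold lower, adjusted p = 0.0195), and the co-chaperone Dnajc3 was 1.38-fold lower (1638 to 2099, then 1251 to 1612). Both groups of arrays were apart for either gene. Hspa5, the main chaperone of this compartment, differed by -0.10 (95% interval -0.33 to 0.13). Ero1b, an oxidase for disulfide formation, was called lower at an adjusted p of 0.0476 with overlapping arrays, which held only without lignan-free replicate 3, sesamin replicate 1, episesamin replicate 3 or sesamolin replicate 1 and otherwise reached 0.117. The call for Dnajc3 ended without sesamin replicate 5 or sesamolin replicate 3 (up to 0.0593) and that for Hsp90b1 without sesamolin replicates 3 or 5 (up to 0.0594).

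Amino acid breakdown and the urea cycle gave 1 lower and 0 higher gene of 51 (1.96%), a share near the 1.81% called over all genes, with 12 members above 0 and a median of -0.19. Outside the list, Acad8, Dmgdh and Dhtkd1, which also act in amino acid breakdown, were called lower. The calls for Acad8 and Dmgdh held with any 1 array left out and that for Dhtkd1 did not. All were lost in at least 1 other setting. Hal, which starts histidine breakdown, read 1071, 1122, 1099, 1194 and 1419 with sesamin and 774, 740, 515, 711 and 854 with sesamolin (1.65-fold lower, adjusted p = 0.0300), and its call ended without sesamin replicates 3, 4 or 5 or sesamolin replicates 3 or 4 (up to 0.0854). Cps1, the first enzyme of the urea cycle, read 6982 to 7845 and 6465 to 6720, apart but not called (-0.15, 95% interval -0.30 to -0.01, adjusted p = 0.313). A second Cps1 probe set, at 5435 with sesamin and 3822 with sesamolin, was lower (-0.51 ± 0.10, adjusted p = 0.0173 over all probe sets), and Cps1 was called lower when its probe sets were averaged (-0.33, adjusted p = 0.0332). No gene passed among 38 of oxidative phosphorylation (median 0.08, -0.02 without normalization), 30 of the acute phase (-0.14), 31 of the cell cycle (-0.35, with 5 above 0), 22 interferon-induced genes (-0.11), 16 of the circadian clock (-0.11) and 29 nuclear receptors and cofactors (0.03, -0.01 under median scaling). The proliferation marker Mki67 spread from 23.4 to 126 with sesamin and from 16.9 to 46.9 with sesamolin (adjusted p = 0.313). Of genes outside the lists, Ndufa3 and Ndufb9, subunits of respiratory complex I, and Cox14, an assembly gene of complex IV, were called higher. Cdkn1b, a cell cycle inhibitor, Topbp1 and Cep152 were called lower. A second, dimmer Cdkn1b probe set differed by 0.46 without passing. The calls for Ndufa3 and Cdkn1b held with any 1 array left out and the others did not. All were lost in at least 1 other setting.

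Of 13 tested markers of Kupffer cells and macrophages, 2 were called lower (15.4%) and 12 lay below 0 (median -0.37), and their summed intensity was 6471 to 9980 on the sesamin arrays and 5218 to 7135 on the sesamolin arrays. C1qa, a chain of complement C1q made by macrophages, was 1.55-fold lower with overlapping arrays (965 to 1449, then 620 to 995), and Mrc1, the mannose receptor, 1.29-fold (547 to 685, then 428 to 525.8). The call for Mrc1 ended without sesamin replicates 3 or 4 or sesamolin replicates 1, 2 or 3 (adjusted p up to 0.0733). C1qb, C1qc and Clec4f, a lectin of Kupffer cells, lay lower by -0.47, -0.50 and -0.51 without passing (adjusted p = 0.0917, 0.0663 and 0.128), while Cd68 showed -0.14, Lyz2 -0.01 and Cd14 0.21. Fcna, a ficolin of macrophages outside the list, was 1.89-fold lower (286 to 457, then 137 to 256; adjusted p = 0.00625). The part of these cells in the falls of Fcna, Slfn4, Nfkbiz and the other lower genes was not tested. Of the remaining marker lists, none had a called member: the bile duct list had 9 tested members (median 0.29), lymphocytes with neutrophils 12 (-0.34), fat and exocrine pancreas 5 (-0.20), stellate cells with fibroblasts 19 (-0.06), erythroid genes 4 (0.31) and the endothelial list 15 (-0.03).

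The same differences can be set beside the lignan-free diet, against which all lignans were compared with shared control arrays. Sesamin gave 46 higher (0.397%) and 4 lower genes (0.0346%), 0.432% in all, and sesamolin 380 higher (3.28%) and 342 lower genes (2.95%), 6.24% in all. Because these comparisons share the sesamin, sesamolin or lignan-free arrays with the one above, the counts that follow are a description. Of the 116 genes higher with sesamolin than with sesamin, 98 were also higher with sesamolin than without lignan and 29 with sesamin than without lignan. For 73 of them both lignans lay above the lignan-free mean, with sesamin in between, and for 43 sesamin lay below it and sesamolin above. Crat, Ehhadh, Vnn1, Aig1 and Acot1 belonged to the former kind: on the log2 scale Crat stood 1.73 above the lignan-free diet with sesamin and 3.37 with sesamolin, Ehhadh 1.61 and 3.05, Vnn1 1.75 and 3.02, Aig1 1.98 and 3.71 and Acot1 6.36 and 8.71. Cpt1b, Pdk4 and Hilpda stood 0.06, 0.15 and 0.05 above it with sesamin and 1.89, 1.57 and 0.75 with sesamolin. The lignan-free mean of Acot1 lay below the filter level of 17.8. Its 6.36 and 8.71 therefore depend on the offset of 5.85 and are not measured folds. Of the 94 lower genes, 77 were lower with sesamolin than without lignan and 0 with sesamin. For 42 both lignans lay below the lignan-free mean, and for 52 sesamolin lay below and sesamin above.

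Genes that respond to a lignan were also picked from the difference between episesamin and the lignan-free diet, in which 337 genes were higher (2.91%) and 256 lower (2.21%), 5.12% in all. The means of the sesamin and sesamolin arrays do not enter that difference, but these arrays shared its normalization, filter and variance estimate. Of 337 genes higher with episesamin, 80 (23.7%) were higher with sesamolin than with sesamin and 0 lower, against 1.0% higher over all genes. Their median difference was 0.31, and 306 of the 337 lay above 0. Relative to the lignan-free diet, whose arrays were used to choose them, these genes had medians of 0.29 with sesamin, 0.64 with episesamin, on whose arrays they were chosen, and 0.58 with sesamolin. Of 256 genes lower with episesamin, 37 (14.5%) were lower with sesamolin than with sesamin and 0 higher, against 0.812% lower over all genes, with a median of -0.24 and 30 above 0. Their medians relative to the lignan-free diet were -0.22 with sesamin, -0.58 with episesamin and -0.48 with sesamolin. The genes called both ways, 117 in all, numbered 13 without normalization, 55 under median scaling, 73 without sesamin replicate 5 and 74 without sesamolin replicate 3. Outside the episesamin sets lay 36 of the 116 higher and 57 of the 94 lower genes.

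The choice was therefore repeated with the episesamin and lignan-free arrays normalized, filtered and fitted alone, and the sesamin and sesamolin arrays likewise, a setting chosen after the data were seen. Of 231 genes higher with episesamin, 32 (13.9%) were then higher with sesamolin than with sesamin and 0 lower, against 0.393% higher of 10438 genes in both fits. Their median difference was 0.37, and 215 lay above 0. Of 155 genes lower with episesamin, 8 (5.16%) were lower with sesamolin and 0 higher, against 0.172% lower over the same genes, with a median of -0.28 and 14 above 0.

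**Figure D5:**
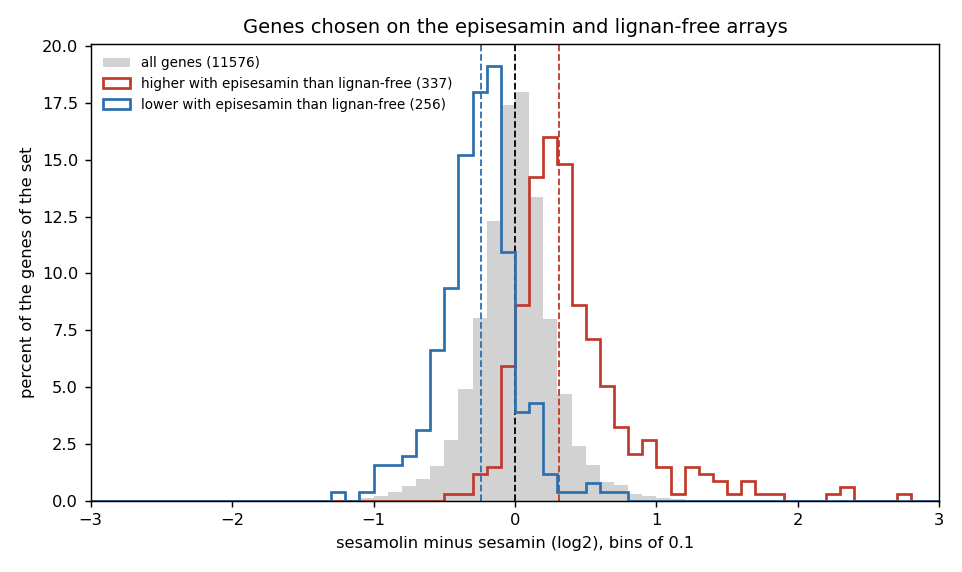
Distribution of the sesamolin minus sesamin difference (log2, bins of 0.1) as percent of the genes of each set: all 11576 genes (grey), 337 genes higher with episesamin than with the lignan-free diet (red) and 256 genes lower (blue). Dashed lines mark the medians, 0.31 for the red set, -0.24 for the blue set and 0.002 for all genes; Ugt2b, at -4.97, lies beyond the axis.

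Some strong responders to episesamin did not pass between sesamolin and sesamin. Hdc, which makes histamine, stood 4.28 higher with episesamin than without lignan. It read 201, 202, 96.0, 109 and 59.4 with sesamin and 1290, 202, 566, 787 and 771 with sesamolin, so that sesamolin replicate 2 only just exceeded the highest sesamin array (2.30, 95% interval 0.92 to 3.67, adjusted p = 0.0848). Nim1k, a protein kinase, showed 1.6 (0.64 to 2.56), Rhof, a small GTPase, 1.05 (0.42 to 1.68), Cacna2d3, a calcium channel subunit, 0.91 (0.29 to 1.53) and Acsm5, a medium-chain acyl-CoA synthetase, 0.51 (-0.26 to 1.28). Among the genes that fell with episesamin, Myo7b, a myosin of microvilli, showed -0.70 (-1.52 to 0.11), Duoxa1, a maturation factor of an oxidase, -0.93 (-1.87 to 0.01), Tsx 0.72 (-0.23 to 1.68) and Gadl1, an amino acid decarboxylase, -0.05 (-0.93 to 0.84). Over all genes, 10038 (86.7%) had a 95% interval that stayed within 2-fold either way, and its median half-width was 0.34 on the log2 scale. For those genes a larger difference between the lignans lies outside the interval, which does not show that the lignans act alike.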

How the data were processed

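Liver RNA of 20 rats was hybridised to Affymetrix rat arrays, 1 array per rat, per the labels' protocols. The deposited values are linear intensities of 31099 probe sets, 1 per probe set. For the software behind them, the tool was not given in the sources used here. Raw array means differed 1.70-fold, so arrays were quantile normalized and log2(intensity + 5.85) was taken, the offset being the 20th percentile. A probe set was kept if 5 or more arrays lay above 17.8, which is the 40th percentile. Of 20826 probe sets with 1 gene symbol, 15894 passed, and the probe set of highest mean stood for each of 11576 genes. Of 67 called genes with more than 1 probe set past the filter, 55 had all of them in 1 direction. Second probe sets that did not pass are not given for every gene. limma 3.58.1 (R 4.3.3) fitted 4 group means on all 20 arrays, with empirical Bayes moderation and Benjamini-Hochberg adjustment. The pipeline was tested on simulated data. A fold against a group mostly below the filter level is a bound set at that level. Named genes were those with the largest called differences and separate arrays, the leading called and the brightest uncalled list members, and the leading episesamin responders without a call. The other called members of the oxidation, hydrolysis and lipid droplet lists, and Cpt1a, Cd14, Cd68 and Ugt2b, were added after their values were seen. So were Ndufa3, Ndufb9, Cox14, Cdkn1b, Topbp1, Cep152, Gstp3, Acad8, Dmgdh, Dhtkd1, Cdh17 and Itgb3bp. The members and the 34 gene lists were chosen with earlier results of these data known. Settings tried were the normalization, offset, filter, probe set rule, variance model, covariates and single arrays left out. Within a diet, arrays came from different rats.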

Additional observations from a re-analysis of the deposited data

Results flagged for a closer look

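In 324 groups of 5 arrays examined, 18 had an array whose gap to its nearest neighbour exceeded 0.71 of the group's range (Dixon's 95% value), and chance gives about 5 percent of groups. Sesamolin replicate 2 held 7 of the 18, and it was also the array of lowest mean raw intensity in its group (159.2). On it Crat read 643 against 1384 to 1621 on the other sesamolin arrays (gap over range 0.827), and Ehhadh 6143 against 9552 to 11050 (0.75). Aldh1a1 read 2096 against 3140 to 3617 (0.744), and Aqp7, a glycerol channel, 31.0 against 106.2 to 149.6 (0.773). The same array was high for Scp2 (10010 against 8578 to 8850, 0.818), Ldha (10970 against 10060 to 10130, 0.917) and Apoc3 (14940 against 13730 to 14050, 0.75).

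Sesamin replicate 5 was low for Ech1 (3151 against 4470 to 5045, gap over range 0.75), Aldh1a1 (447.1 against 1497 to 1726, 0.892) and Ppcdc, an enzyme of coenzyme A synthesis (29.9 against 44.3 to 50.9, 0.734). Sesamin replicate 2 was low for Syncrip-ps2 (22.0 against 38.4 to 42.5, 0.837) and Ugt2b (177.4 against 4625 to 5080, 0.973) and high for Tsx (50.2 against 12.9 to 16.2, 0.851). Of the other sesamin arrays, replicate 1 was low for Elovl5 (6259 against 7713 to 8342, 0.714), replicate 3 high for Slc16a6 (43.2 against 28.3 to 30.4, 0.83) and replicate 4 low for Mgll (567.7 against 791.4 to 834.4, 0.862). Sesamolin replicate 3 was high for Gpx4, a peroxidase of lipid peroxides (4992 against 4439 to 4486, 0.941), and replicate 5 for Pxmp2, a peroxisomal membrane protein (3865 against 3684 to 3746, 0.714).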

How the results depend on the processing

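Counts are given as genes higher, genes lower and genes of the episesamin response that differed, which were 116, 94 and 117. Median scaling gave 45, 36 and 55, no normalization 9, 14 and 13, and dropping the arrays whose raw mean was under 200 gave 63, 42 and 56. Trended and robust variance estimation gave 157, 152 and 188. With only the 2 groups in the model 36 and 16 were called. As settings chosen after seeing the data, the episesamin genes chosen on the episesamin and lignan-free arrays alone gave 101, and each pair of diets normalized, filtered and fitted alone gave 40. Higher genes made up 55.2% of the calls, 39.1% without normalization and 69.2% with only the 2 groups. With single arrays left out the counts ranged over 65 to 119, 45 to 109 and 73 to 123. The 152 higher and 110 lower genes of the replicate block (138 of the episesamin response) rest on numbers that do not pair the rats: same-numbered arrays correlated at -0.0004 to 0.21, and only numbers 1 and 2 correlated best with each other. The raw brightness difference of -14.9 ranged from -25.9 to 0.588 with single arrays left out and reversed without sesamolin replicate 2 (exact permutation p = 0.992). Of 92 called genes among 160 examined singly, none reversed, 38 lost the call without at least 1 array and 79 under at least 1 other setting; 22 uncalled genes gained one, and 66 values of uncalled genes changed sign. Without normalization the median of all genes was -0.14. The number of arrays limits the precision.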

Other observations

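Genes outside the lists were picked after their values were seen. Both glycerol 3-phosphate dehydrogenases were higher with sesamolin, Gpd1 (cytosolic) 1.64-fold, at 3784 ± 740 with sesamin and 6117 ± 397 with sesamolin (SD, n = 5 each), and Gpd2 (mitochondrial) 1.79-fold. Aqp7, a glycerol channel of the plasma membrane, was 2.45-fold higher and Aqp9, the main glycerol channel of hepatocytes, 1.41-fold lower. The Gpd1 call ended with none of the arrays left out, that of Gpd2 with any of 8 (adjusted p up to 0.0849), that of Aqp7 with any of 14 (up to 0.111) and that of Aqp9 without sesamin replicate 4 (0.0540). Abhd1, an alpha/beta hydrolase fold protein, was 1.96-fold higher (adjusted p = 1.6e-05), Hsdl2, a peroxisomal dehydrogenase-like protein, 1.99-fold, Aco1, the iron-regulated cytosolic aconitase, 1.65-fold and Vwa8, a mitochondrial ATPase, 1.56-fold, and none of these 4 calls ended with an array left out.

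The complement proteins C4bpb and C1s were 1.72-fold and 1.75-fold lower, and Rgn (regucalcin), an enzyme of ascorbate synthesis, 1.78-fold (5626 ± 686 against 3150 ± 354; SD, n = 5 each). The growth factor gene Egf was 1.75-fold lower, a call that ended without sesamolin replicate 3 (adjusted p = 0.0514). Igfbp3, a carrier of insulin-like growth factors, was 1.56-fold lower, a call that ended without sesamin replicate 5 (0.0540). A second Igfbp3 probe set was lower as well (-0.72 ± 0.10, adjusted p = 0.00075 over all probe sets).

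Ugt2b had the largest absolute difference of any tested gene and was not called (-4.97 ± 1.91 SE, 95% interval -8.97 to -0.97, adjusted p = 0.21). Its values were either high or low on single arrays of every diet. They were 14.8, 5509, 327, 5825 and 5335 on the lignan-free arrays and 4939, 177, 4625, 5080 and 5069 on the sesamin arrays. With episesamin they were 17.3, 5481, 4566, 4813 and 5705, and with sesamolin 6.42, 6.67, 4720, 109 and 37.2.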
